A study of Homo sapiens with 4 samples.

Results

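The genes examined were 10 components of the TRAIL and FAS death receptor pathway. They comprised 4 death-domain receptors, 2 decoy receptors, 2 ligands, an adaptor and an inhibitor. They were chosen by gene symbol, with the earlier result of the same contrast in view that FAS and TNFRSF10B were higher after treatment. Their differences between the groups are therefore a description and not an independent test. A gene was measured where the array annotation gave a transcript cluster, the set of probes for 1 transcript locus, exactly 1 symbol. This held for 9 of the 10 genes, which had 10 of the 19460 clusters with exactly 1 symbol. TNFRSF10C, the second decoy receptor, shared its cluster with another symbol and was not analysed here.

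Expression was measured in AGS cells, an established gastric adenocarcinoma line, on Affymetrix Human Gene 1.0 ST arrays. One group of 2 arrays held cells given 0.01% ornithogalum, a homeopathic formulation, for 36 h. The other group of 2 arrays held cells given its vehicle, ethanol, for the same 36 h. All cells were the same line, kept in medium with serum and treated before they were confluent, so the results describe 1 line at 1 dose and 1 time. The labels call the arrays of a group biological replicates without saying whether the cultures were separate experiments, so p-values measure only the spread between these samples.

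Death receptors are cell surface proteins of the tumour necrosis factor receptor superfamily with a death domain in their cytoplasmic part. Binding of TRAIL (encoded by TNFSF10) or FAS ligand (FASLG) brings the adaptor FADD to the receptor, and FADD recruits the initiator caspase encoded by CASP8, whose activation starts apoptosis. Decoy TRAIL receptors bind the ligand without a complete death domain, and CFLAR, which encodes c-FLIP, competes with the caspase at FADD. Gastric epithelial cells and carcinoma lines are known to carry these receptors.

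Values are log2 expression values made by robust multi-array average (RMA), a method that summarises the probes of a cluster. Differences are ornithogalum minus vehicle on this log2 scale with the standard error (SE) from limma, and SDs are over the 2 arrays of a group. A gene was called where limma's Benjamini-Hochberg adjusted p over all 21214 named clusters was under 0.05, and "rose" and "fell" are used for called genes only. Over all named clusters 19.2% were called, 6.57% higher and 12.6% lower. When each array was centred on its median the split was 2238 higher and 1898 lower, against 1393 and 2683 as deposited. Pooled over named clusters, ornithogalum arrays had an SD of 0.258, against 0.140 for vehicle arrays. Epithelial markers ranged widely in level. Mean log2 values of the 9 measured ran from 5.68 to 10.4 in ornithogalum cells and from 5.21 to 10.5 in vehicle cells. Among the highest were EPCAM, a cell adhesion gene (10.0 in ornithogalum and 9.83 in vehicle cells), and the keratin gene KRT8 (10.4 and 10.5). Of 9 measured epithelial markers 0 rose and 2 fell (KRT19 and CLDN7). Of 8 measured gastric markers 1 rose (SOX2) and 2 fell (TFF1 and GATA4), and the stomach gene GKN1 was low, at a mean of 1.83 in ornithogalum cells and 1.79 in vehicle cells. Of 25 measured leukocyte, fibroblast and endothelial markers 1 rose (PDGFRA, 2.08-fold) and 0 fell. The vehicle mean of PDGFRA, 4.62, lay within the range of leukocyte marker means in vehicle cells, 1.51 to 4.82. The part of these marker changes in the results was not tested. COL1A1, a fibroblast marker that was not called, had means of 5.39 in ornithogalum cells and 5.49 in vehicle cells. For a gene with a group mean below these, it was not determined whether that level was above background. The size of its change is then as measured and not exact.

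In ornithogalum-treated cells the TRAIL receptors and FAS were higher, while the TNF receptor, the TRAIL ligand and the adaptor FADD were lower. Of the 9 measured genes 4 rose and 3 fell, and the remaining genes, FASLG and CFLAR, were not called. These counts stand beside the background shares given above, from which nothing is read because the genes were chosen with this contrast known. The median log2 difference was 0.37 over the 9 genes and 0.035 over all named clusters. The median size of the difference, regardless of sign, was 1.32 over the 9 genes and 0.26 over all named clusters. The arrays of the groups did not overlap in 8 of the 9 genes, a state found in 62.2% of all named clusters. With 2 arrays per group an exact two-sided permutation test cannot give a p under 0.333, so none is given for single genes.

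**Figure D1:**
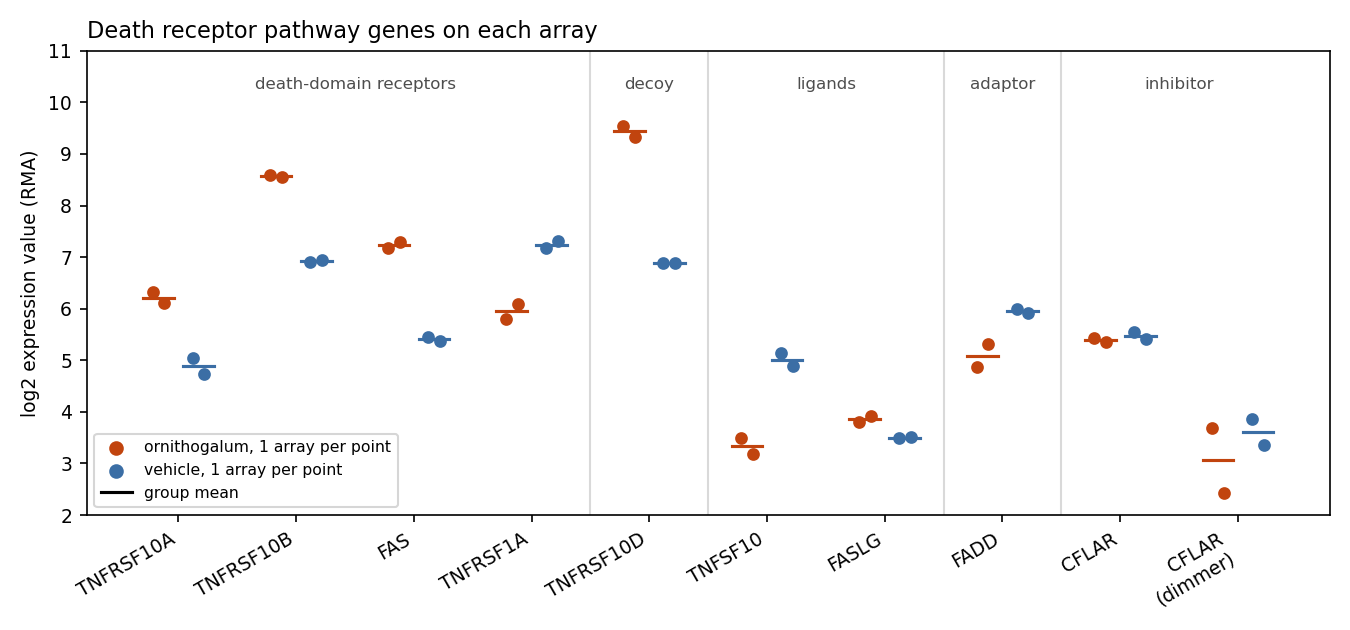
Log2 expression value of each measured gene on each array, with ornithogalum arrays left of vehicle arrays for each gene. Points are single arrays and short lines are group means. The groups lie apart for every gene shown except both CFLAR clusters.

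TNFRSF10B, which encodes the TRAIL receptor known as DR5, had values of 8.60 and 8.55 on the ornithogalum arrays, against 6.90 and 6.94 on the vehicle arrays (cluster 8149733). Both ornithogalum arrays were high and differed from each other by little. The gene rose 3.14-fold, a log2 difference of 1.65 (SE 0.11), with an adjusted p of 0.00336. TNFRSF10A, which encodes the other TRAIL receptor with a death domain, DR4, stood at 6.32 and 6.10 on the ornithogalum arrays, against 5.05 and 4.74 on the vehicle arrays (cluster 8149762). It rose 2.49-fold, a log2 difference of 1.32 (SE 0.16), with an adjusted p of 0.0077. The vehicle mean of TNFRSF10A, 4.89, lay below that of the fibroblast marker COL1A1, 5.49, so the size of its rise is not exact.

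FAS, the receptor for FAS ligand, had 7.17 and 7.29 on the ornithogalum arrays, against 5.45 and 5.37 on the vehicle arrays (cluster 7929032). It rose 3.54-fold, with a log2 difference of 1.82 (SE 0.12) and an adjusted p of 0.00336. The vehicle mean of FAS, 5.41, was also below that of COL1A1, 5.49, with the same limit on the size of the rise. Ranked by difference from the highest among the 21214 clusters, FAS was at place 59, TNFRSF10B at 83 and TNFRSF10A at 200. The 3 receptors thus lay far above the 95th percentile of all differences, which was 0.68.

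TNFRSF1A was the exception among the death-domain receptors. It encodes TNF receptor 1, which on ligand binding first assembles a signalling complex that turns on NF-kappaB and can start cell death at a later step. Its values were 5.80 and 6.09 on the ornithogalum arrays, against 7.18 and 7.30 on the vehicle arrays (cluster 7960518). It fell 2.45-fold, a log2 difference of -1.29 (SE 0.15), with an adjusted p of 0.00648, and it was at place 592 from the lowest difference. Within each array, FAS minus TNFRSF1A was 1.37 and 1.20 in ornithogalum cells, against -1.73 and -1.93 in vehicle cells, a change of 3.12.

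The decoy receptor TNFRSF10D, known as DcR2, had the largest difference of the measured genes. It encodes a TRAIL-binding receptor with a truncated death domain. Its values were 9.55 and 9.33 on the ornithogalum arrays, against 6.89 and 6.89 on the vehicle arrays (cluster 8149749). The vehicle arrays were almost equal and both ornithogalum arrays lay far above them, a 5.83-fold rise (log2 difference 2.54, SE 0.13, adjusted p of 0.00336). Among all 21214 clusters it was at place 13 from the highest.

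**Figure D2:**
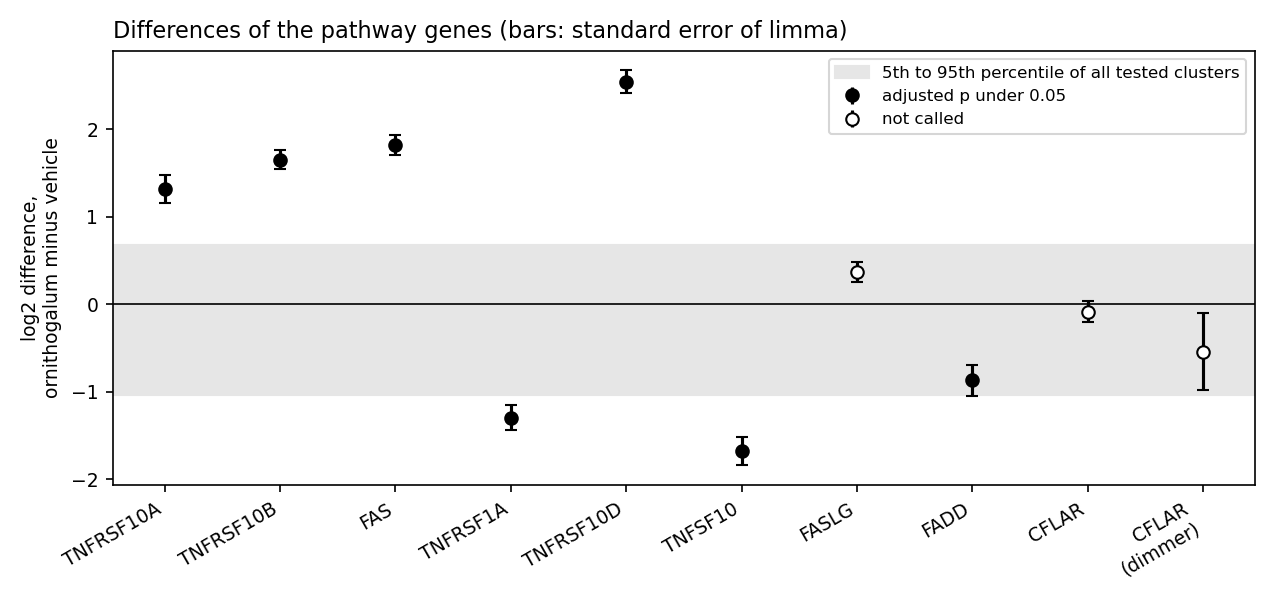
Log2 difference, ornithogalum minus vehicle, of each measured gene with limma's SE as bars. Filled points passed an adjusted p of 0.05, open points did not, and the grey band spans the 5th to 95th percentile (-1.03 to 0.68) of all tested clusters. The 4 genes that rose lie above the band, and TNFRSF1A and TNFSF10 lie below it.

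Because a shift common to a whole array cancels in a difference taken within it, the balance between genes was also computed on each array. The probes of different genes differ in brightness, so only the change between groups has a meaning. TNFRSF10B minus TNFRSF10D was -0.95 and -0.78 in ornithogalum cells, against 0.0059 and 0.047 in vehicle cells, a change of -0.89. TNFRSF10A minus TNFRSF10D was -3.23 and -3.22 in ornithogalum cells, against -1.85 and -2.16 in vehicle cells, a change of -1.23. These changes equal the differences between the genes' log2 differences given above and add only the values per array. The groups did not overlap on them, but this held for every within-array contrast computed here. It held also for FAS minus TNFRSF10B, with a change of 0.17, so nothing is read from it. For the mean of all 4 death-domain receptors minus TNFRSF10D the values were -2.58 and -2.32 in ornithogalum cells, against -0.75 and -0.80 in vehicle cells, a change of -1.67. This mean joins 3 receptors that rose with TNFRSF1A, which fell (log2 difference -1.29), so part of the change comes from TNFRSF1A. FAS and TNFRSF1A are receptors of ligands other than TRAIL, the ligand that TNFRSF10D binds.

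The order among the 3 death-domain receptors that rose was less clear beside the SDs, though the groups did not overlap here either. FAS minus TNFRSF10B was -1.34 ± 0.12 in ornithogalum cells and -1.51 ± 0.082 in vehicle cells (SD, n = 2 each), a change of 0.17, close to these SDs. TNFRSF10B minus TNFRSF10A was 2.36 ± 0.11 in ornithogalum cells and 2.03 ± 0.25 in vehicle cells (SD, n = 2 each), a change of 0.34. The array files hold no probe sequences, so whether probes of these related receptor genes also bind each other's transcripts was not tested.

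**Figure D3:**
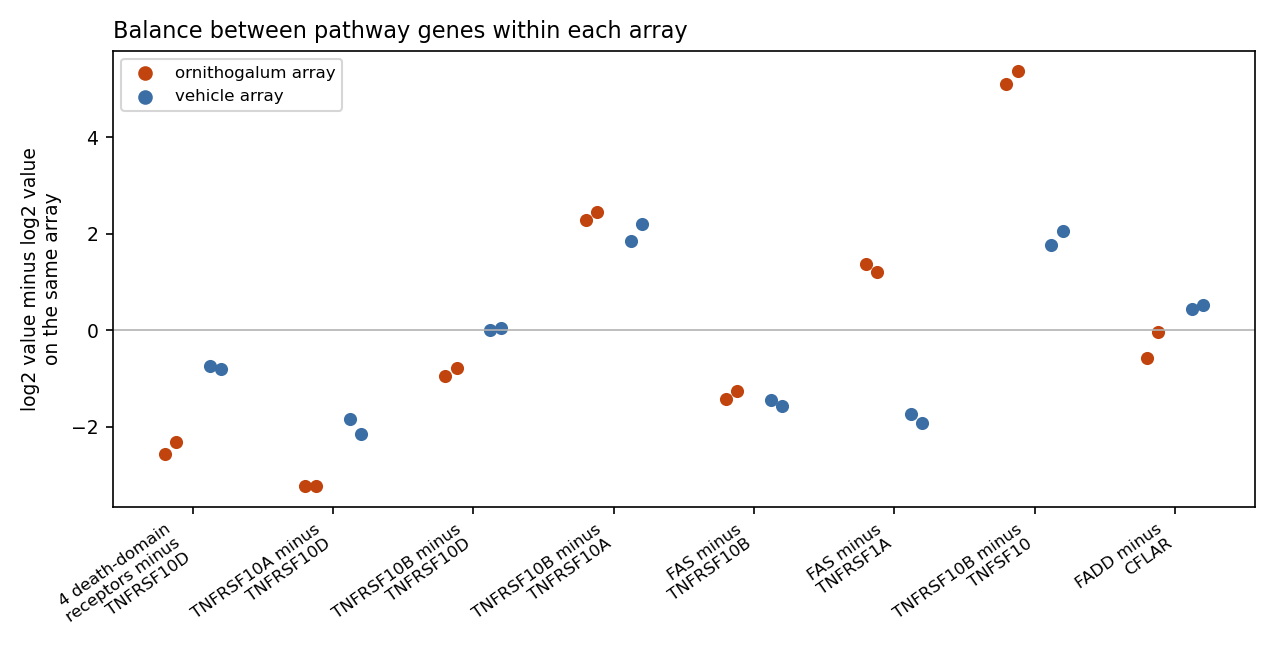
Difference between the log2 values of the genes named, taken on the same array. Each point is an array, with ornithogalum left of vehicle, and only the shift between groups can be read, since probes of different genes differ in brightness. TNFRSF10B minus TNFRSF10D shifts by -0.89, and the contrast with TNFSF10, whose level in ornithogalum cells was not shown to be above background, by 3.33.

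The TRAIL receptor genes are next to each other on chromosome 8. In the order of protein-coding genes of the RefSeq table of GRCh38.p14, 11 of the 12 nearest neighbours, 6 on each side, were measured. None of these neighbours rose by the adjusted p and 1 fell, where 6.57% of all named clusters were called higher and 12.6% lower. The neighbour that fell was RHOBTB2, an adaptor gene of cullin ubiquitin ligases. It had 3.82 and 4.09 on the ornithogalum arrays, against 4.78 and 4.92 on the vehicle arrays (log2 difference -0.90, SE 0.15, adjusted p of 0.0162). Its level in ornithogalum cells lay within the range of leukocyte marker means in the same cells, 1.59 to 4.68. Whether it was above background was not determined, so the size of its fall is not exact. The annotated ends of RHOBTB2 and TNFRSF10B overlap, and they moved in opposite directions. CHMP7, next to TNFRSF10A on the other side and a gene of membrane scission, had a log2 difference of 0.16 (SE 0.11, adjusted p of 0.369). The differences of the 11 neighbours ran from -0.90 to 0.34, below all 3 measured TRAIL receptor genes.

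**Figure D4:**
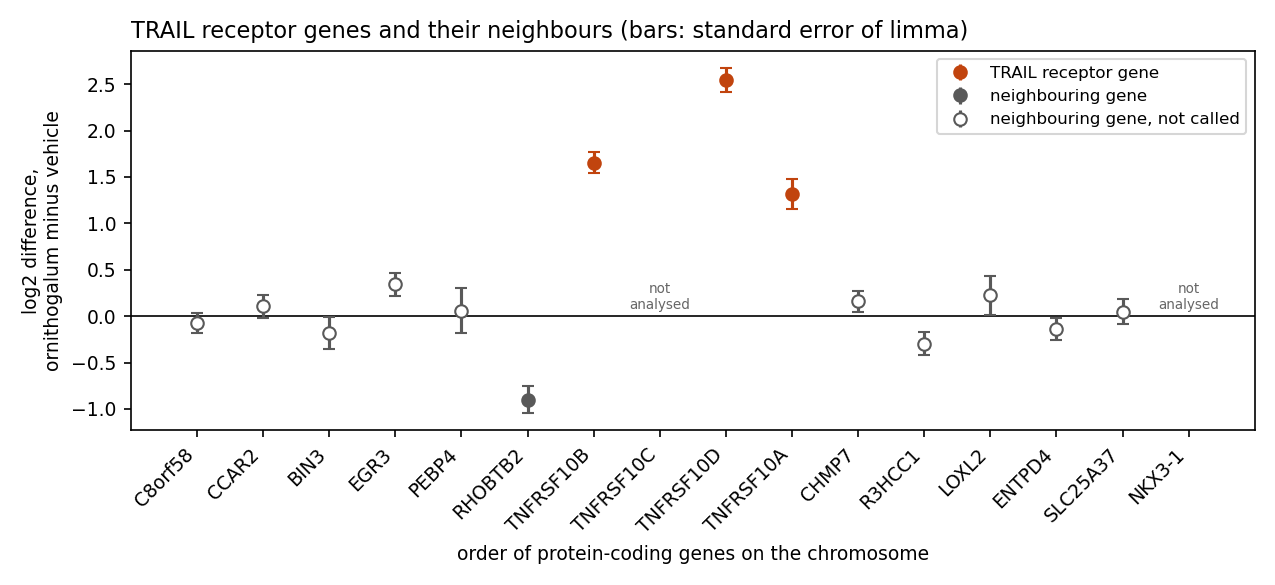
Log2 difference, ornithogalum minus vehicle, with limma's SE as bars, for the TRAIL receptor genes and 6 protein-coding genes on each side in chromosomal order. The 3 measured TRAIL receptor genes lie between 1.32 and 2.54, and the measured neighbours between -0.90 and 0.34.

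The ligand genes differed from each other in direction. TNFSF10, which encodes TRAIL and is known to be induced by interferons, had 3.49 and 3.18 on the ornithogalum arrays, against 5.13 and 4.89 on the vehicle arrays (cluster 8092169). Both ornithogalum arrays were low, and the gene fell 3.20-fold (log2 difference -1.68, SE 0.16, adjusted p of 0.00486), at place 227 from the lowest difference. Its level in ornithogalum cells lay within the range of the mean values of leukocyte markers in the same cells, 1.59 to 4.68, and without detection calls it was not determined whether it was above background. The size of its fall, its rank and any contrast with it are therefore as measured and not exact. Within each array, TNFRSF10B minus TNFSF10 was 5.11 and 5.36 in ornithogalum cells, against 1.76 and 2.05 in vehicle cells, a change of 3.33.

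FASLG, the ligand of FAS and chiefly a product of activated lymphocytes, had 3.81 and 3.92 on the ornithogalum arrays, against 3.49 and 3.50 on the vehicle arrays (cluster 7907430). The arrays did not overlap, but the log2 difference of 0.37 (SE 0.11) had an adjusted p of 0.0895 and was not called. With each array centred on its median the difference was 0.53 and passed, with an adjusted p of 0.0373. Whether FASLG was above background was likewise not determined. Of 10 measured leukocyte markers 0 were called, and their summed log2 values were 34.2 and 34.6 on the ornithogalum arrays, against 34.6 and 34.5 on the vehicle arrays.

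FADD, the adaptor that links death receptors to the initiator caspase, had 4.87 and 5.31 on the ornithogalum arrays, against 5.99 and 5.92 on the vehicle arrays (cluster 7942168). The ornithogalum arrays differed from each other more than for any other gene of the set by its main cluster, with an SD of 0.31 against 0.054 in vehicle cells. FADD fell 1.82-fold (log2 difference -0.87, SE 0.18, adjusted p of 0.0302). Its mean in ornithogalum cells, 5.09, lay below that of COL1A1 in the same cells, 5.39, so the size of its fall is not exact. The call was lost when every cluster of the table, named or not, was tested (adjusted p of 0.0765).

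CFLAR, the inhibitor, had 5.44 and 5.36 on the ornithogalum arrays, against 5.55 and 5.41 on the vehicle arrays in its brighter cluster (8047381). The groups overlapped, with a log2 difference of -0.083 (SE 0.12, adjusted p of 0.67) whose sign turned under quantile, cyclic loess and median scaling. Its dimmer cluster (8047401) gave 3.70 and 2.43 on the ornithogalum arrays, against 3.86 and 3.35 on the vehicle arrays. Here the ornithogalum arrays were far apart, and the log2 difference of -0.54 (SE 0.44) had an adjusted p of 0.442. Within each array, FADD minus the brighter CFLAR cluster was -0.57 and -0.048 in ornithogalum cells, against 0.44 and 0.51 in vehicle cells, a change of -0.78.

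The calls rested on the vehicle pair. With either vehicle array left out limma called 0 named clusters (4192 without replicate 1 and 3986 without replicate 2 had an unadjusted p below 0.05), and the 7 genes called above had adjusted p from 0.0605 to 0.197. Their log2 differences kept their direction in each of the 12 other settings in which the gene was tested. In bulk RNA, fewer cells that carry a transcript and less of it per cell cannot be told apart.

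Promoter sequence was available for 6 of the 10 genes in the RefSeq promoter table of GRCh38.p14. The 250 bases before the annotated start are shown for the 4 called genes among them, 1 that rose and 3 that fell, to let their upstream sequence be compared. The windows are chr10:88990548-88990797 on the plus strand for FAS, chr12:6342077-6342326 on the minus strand for TNFRSF1A, chr3:172523431-172523680 on the minus strand for TNFSF10 and chr11:70203046-70203295 on the plus strand for FADD. For FAS, which has several annotated starts, the most upstream one was taken, and its window lies within the span of the neighbouring gene ACTA2. Capitals mark matches, on either strand, to the 6 motifs searched.
FAS: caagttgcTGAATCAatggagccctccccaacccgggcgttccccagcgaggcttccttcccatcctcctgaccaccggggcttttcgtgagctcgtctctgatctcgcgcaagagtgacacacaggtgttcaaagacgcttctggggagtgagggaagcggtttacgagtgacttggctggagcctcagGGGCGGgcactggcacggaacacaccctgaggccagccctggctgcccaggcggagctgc
TNFRSF1A: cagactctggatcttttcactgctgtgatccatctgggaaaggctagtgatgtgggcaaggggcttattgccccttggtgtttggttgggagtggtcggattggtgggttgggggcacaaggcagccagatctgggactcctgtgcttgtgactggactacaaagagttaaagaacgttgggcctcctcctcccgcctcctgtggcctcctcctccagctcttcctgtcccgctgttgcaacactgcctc
TNFSF10: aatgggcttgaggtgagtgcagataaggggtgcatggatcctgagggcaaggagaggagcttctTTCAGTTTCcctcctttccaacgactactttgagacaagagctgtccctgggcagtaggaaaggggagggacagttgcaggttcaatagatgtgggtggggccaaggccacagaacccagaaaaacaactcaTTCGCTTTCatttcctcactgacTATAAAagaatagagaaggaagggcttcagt
FADD: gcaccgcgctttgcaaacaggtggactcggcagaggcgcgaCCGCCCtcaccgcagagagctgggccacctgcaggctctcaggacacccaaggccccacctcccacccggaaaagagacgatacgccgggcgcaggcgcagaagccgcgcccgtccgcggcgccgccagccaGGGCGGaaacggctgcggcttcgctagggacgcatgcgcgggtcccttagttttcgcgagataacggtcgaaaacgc

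The FAS window held 1 match to a loose AP-1 motif (TGANTCA, where N is any base), 242 to 236 bases before the start. Its letters were TGAATCA, with A at the centre. The window also held 1 GC box (GGGCGG), 60 to 55 bases before the start. Of 35116 promoter windows of the same length, 6.57% held this AP-1 motif and 42.6% a GC box. The TNFSF10 window held 2 matches to an interferon response core (GAAANNGAA), at 186 to 178 and at 54 to 46 bases before the start, and a TATA motif (TATAAA) at 31 to 26 bases. These motifs were in 6.88% and 10.7% of all windows. The FADD window held 2 GC boxes, and the TNFRSF1A window matched none of the 6 motifs. The others searched were the cyclic AMP response element (TGACGTCA, 1.65% of windows) and, by name, an NF-kappaB site (9.96%). No motif was thus shared by the 3 genes that fell, and a match describes letters in this window and not a bound site.

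The other genes of the pathway moved in both directions. Of 82 listed genes, 8 of them neighbours of the TRAIL receptor genes, 73 were measured, and 11 rose and 7 fell. This is 24.7%, against 19.2% of all named clusters, with a median log2 difference of 0.050 against 0.035. These lists were drawn up with earlier results of the same arrays known.

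**Figure D5:**
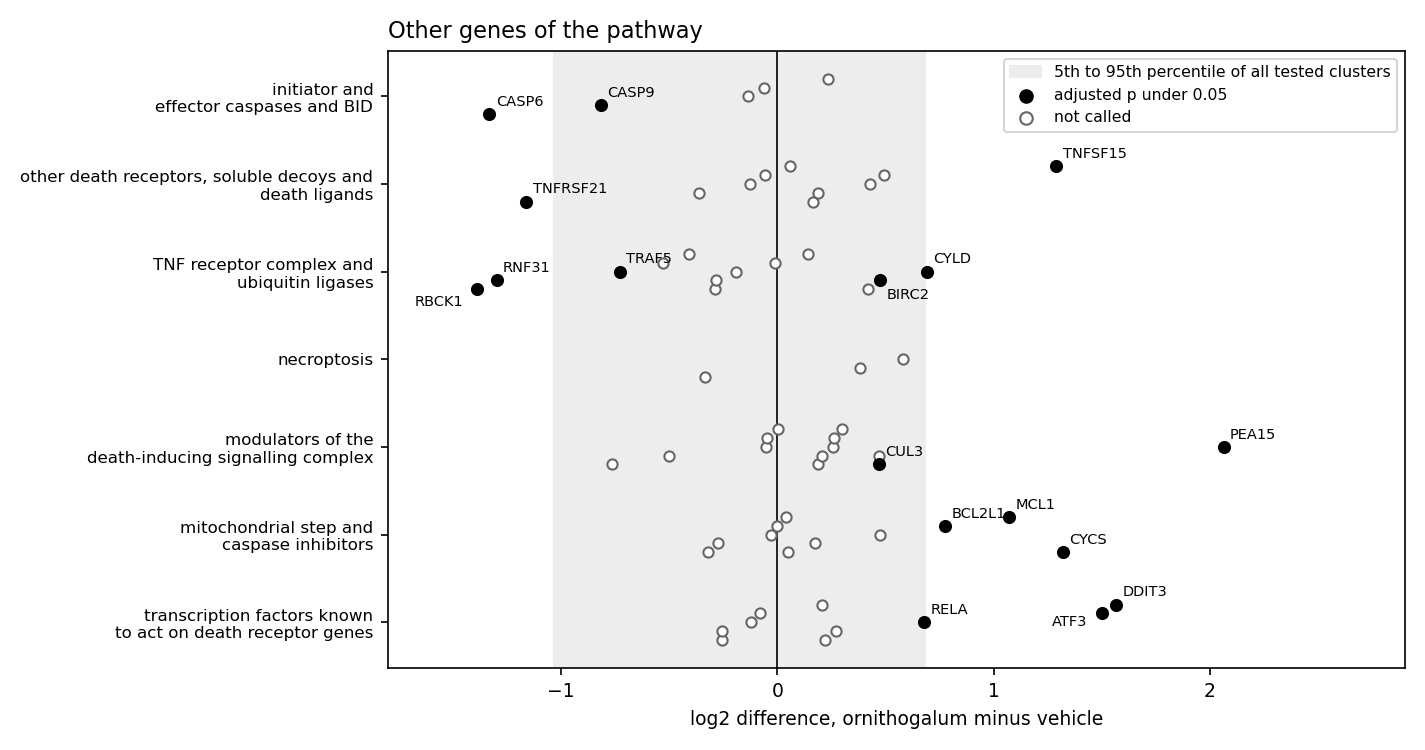
Log2 difference, ornithogalum minus vehicle, of the other measured pathway genes, grouped by role. Filled points passed an adjusted p of 0.05 and are named, open points did not, and the grey band spans the 5th to 95th percentile of all tested clusters. PEA15 lies farthest to the right at 2.06, and RBCK1 farthest to the left at -1.39.

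Among the caspases and BID, which act directly below the receptors, 0 of 5 measured rose and 2 fell. CASP8, the initiator caspase recruited by FADD, had a log2 difference of -0.13 (SE 0.11), and CASP10, its close relative, 0.24 (SE 0.17), and neither was called. CASP6, an effector caspase, had 3.59 and 3.45 on the ornithogalum arrays, against 4.79 and 4.90 on the vehicle arrays, a log2 difference of -1.33 (adjusted p of 0.00449). Its level in ornithogalum cells was, like that of TNFSF10, within the range of the leukocyte markers, with the same limit on the size of the fall. CASP9, the initiator of the mitochondrial route, stood at 4.60 and 4.71 on the ornithogalum arrays, against 5.46 and 5.49 on the vehicle arrays, a difference of -0.82. Its mean in ornithogalum cells, 4.66, was also within that range, near its upper end, with the same limit. CASP6 and CASP9 both fell, while the initiators of the receptor route were not called.

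Of 13 measured modulators of the death-inducing signalling complex 2 rose and 0 fell. PEA15, whose death effector domain binds FADD and the initiator caspase, had 9.55 and 9.20 on the ornithogalum arrays, against 7.24 and 7.38 on the vehicle arrays. It rose 4.18-fold (log2 difference 2.06, SE 0.16, adjusted p of 0.0036). CUL3, the scaffold of a ubiquitin ligase that modifies the initiator caspase, rose 1.39-fold (log2 difference 0.47, SE 0.11).

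Genes of the TNF receptor complex went both ways, with 2 of 13 measured higher and 3 lower. RBCK1 and RNF31 encode partners in the ligase that builds linear ubiquitin chains at TNF receptor 1. RBCK1 had 5.45 and 5.52 on the ornithogalum arrays, against 6.84 and 6.91 on the vehicle arrays, a log2 difference of -1.39 (SE 0.11, adjusted p of 0.00378). RNF31 stood at 4.57 and 5.12 on the ornithogalum arrays, against 6.02 and 6.27 on the vehicle arrays, a difference of -1.30 (SE 0.22). Both fell, as did their receptor gene TNFRSF1A, while SHARPIN, the remaining partner in that ligase, had a difference of -0.29 (SE 0.13) and was not called. CYLD, which removes such chains, rose 1.62-fold, and BIRC2, a ubiquitin ligase of the same complex, rose 1.39-fold, with an adjusted p of 0.0309 for CYLD and 0.0434 for BIRC2. The vehicle mean of CYLD, 4.50, lay within the range of leukocyte marker means in vehicle cells, 1.51 to 4.82, so the size of its rise is not exact.

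Of 10 other death receptors, decoys and ligands measured, 1 rose and 1 fell. TNFRSF21, which encodes death receptor 6, had 6.63 and 6.54 on the ornithogalum arrays, against 7.82 and 7.66 on the vehicle arrays, a log2 difference of -1.16 (SE 0.12). TNFSF15, the ligand of the receptor encoded by TNFRSF25, stood at 6.30 and 6.62 on the ornithogalum arrays, against 5.22 and 5.11 on the vehicle arrays, a difference of 1.29 (SE 0.15). TNFRSF25 itself had a difference of -0.055 (SE 0.15) and was not called. Of 3 measured necroptosis genes 0 were called, and the smallest p belonged to the kinase gene RIPK3, with a difference of 0.58 (SE 0.15, adjusted p of 0.056), and to ZBP1, a sensor of nucleic acids, with 0.38 (SE 0.11, adjusted p of 0.0814). Means of RIPK3 and ZBP1 lay within the range of leukocyte marker means in each group, and whether they were above background was not determined.

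At the mitochondrial step, which amplifies the receptor signal, 3 of 11 measured genes rose and 0 fell. CYCS, which encodes cytochrome c, had 6.70 and 6.72 on the ornithogalum arrays, against 5.55 and 5.22 on the vehicle arrays. MCL1 and BCL2L1, which oppose release of cytochrome c, had log2 differences of 1.07 (SE 0.12) and 0.78 (SE 0.11). The genes that rose thus included the released factor and inhibitors of its release.

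Among transcription factors known to act on death receptor genes, 3 of 10 measured rose and 0 fell. DDIT3, which encodes CHOP, a known activator of TNFRSF10B, had 6.74 and 6.33 on the ornithogalum arrays, against 4.83 and 5.11 on the vehicle arrays. It rose 2.96-fold (log2 difference 1.57, SE 0.19). ATF3, a stress-induced factor, rose 2.83-fold and RELA, a subunit of NF-kappaB, 1.60-fold, with an adjusted p of 0.00359 for ATF3 and 0.0206 for RELA. The vehicle mean of ATF3, 4.24, lay within the range of leukocyte marker means in vehicle cells, 1.51 to 4.82. The size of its rise is therefore as measured and not exact.

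Genes with a profile over the 4 arrays most like that of the leading receptors were found by the Euclidean distance between log2 values after each gene's mean was removed. For TNFRSF10B the nearest were SPRY4, MCTP1 and CREB5, at distances of 0.041, 0.062 and 0.066. For FAS they were ANKRD1, KAT6A and RBM22, at distances of 0.062, 0.072 and 0.078. All 6 had log2 differences between 1.60 and 1.90. With 4 arrays in 2 groups such a distance mainly ranks genes by the size of their difference.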

How the data were processed

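Values were used as deposited by the authors, on a log2 scale, 1 per transcript cluster and array. RMA and Affymetrix Expression Console 1.1 are named by the submitters' processing notes. The genome build, like filters and background settings, is not given in the sources used here. Depth does not apply to arrays, and their number, 4, limits the precision. Symbols came from the platform annotation of the array and were checked by gene number in the RefSeq table, where 19429 of 19460 matched. A gene with several clusters was represented by the brightest one.

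Groups were compared across all 21214 clusters with at least 1 symbol, with the lmFit and eBayes functions of limma 3.58.1 (R 4.3.3) without a trend, two-sided, with Benjamini-Hochberg adjustment. The fit was also run on simulated data that had the same spread in both groups, unlike these arrays, and nothing is concluded from it here. Members and lists were chosen with earlier results of these data known. The text names every member, and up to 4 called genes of smallest p per list, or up to 2 uncalled ones. CASP8, CASP10, SHARPIN, TNFRSF25, CHMP7 and the marker genes were named beyond that rule, after their values were seen. The motifs were chosen after the expression values were seen. The planned contrast of receptors against decoys used TNFRSF10D alone, since TNFRSF10C was not analysed here.

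Replicate numbers are shared by the groups, but the labels tie them to nothing, and the deviations of arrays with the same number correlated at -0.059, so the fit had no block. The 12 other settings covered the block, leaving out each array, scaling, brightness, variance prior, the set of clusters and array weights.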

Additional observations from a re-analysis of the deposited data

How the results depend on the processing

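Clusters called ran from 0 (without either vehicle array) to 7058 (without ornithogalum replicate 2) when an array was left out, against 4076 in all. Over the same left-out arrays, genes of the set called higher ran from 0 to 4, those called lower from 0 to 3, and the other pathway genes called from 0 to 23, against 4, 3 and 18, with 0 in each case without either vehicle array. A lone array was assumed to vary like the other group. Testing all 33297 clusters called 2644. Under median centring the median difference over named clusters was 0.20, against 0.035 as deposited, and 5 genes of the set were called higher, FASLG being the added one. With the replicate number as a block 3302 clusters, 4 higher and 3 lower genes of the set, and 15 other pathway genes were called. No call of a gene in the set was lost under the block. The CFLAR difference turned positive under quantile (0.067), cyclic loess (0.0071) and median scaling (0.076), and its dimmer cluster without ornithogalum replicate 2 (0.091). Without ornithogalum replicate 1 the dimmer cluster passed at -1.18. The causes were not tested.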
